A study of Solanum lycopersicum with 18 samples.

Results

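The 6 genes described here are 5 aromatic amino acid decarboxylase genes and 1 N-acetyltransferase gene of tomato chromosome 8. They are the decarboxylases Solyc08g068600, Solyc08g068610, Solyc08g068630 and Solyc08g068680, the neighbouring N-acetyltransferase Solyc08g068690, and Solyc08g006740, named AADC2. Their rows were found by gene ID in the tables of every variety, where 34724 gene IDs were listed for all 3 varieties. The genes were selected on FPKM values of these libraries, since the study had picked Solyc08g068600, Solyc08g068610 and Solyc08g068680 for their difference between locations in San Marzano and had drawn Solyc08g068690 from the same comparison. The San Marzano difference is therefore given as a description with no test.

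Red ripe fruit of 3 tomato varieties was compared between field sites at Acerra and Sarno in the Campania region of Italy. The varieties were Heinz (H), which is the reference genome variety, and the local varieties San Marzano (SM) and Vesuviano (RSV), with 3 libraries per variety and site and 18 in all as the labels list them. The study's methods speak of 6 prepared libraries, while its sequencing statistics list 18 samples, each with its own number of fragments. How the 6 relate to the 18 is not given in the sources used here. Fruit of a variety was pooled in each plot, and the sources do not say whether the 3 libraries of a group are separate plots or aliquots, so the p-values measure the spread between these libraries, which may be technical. Values are FPKM (fragments scaled to transcript length and to the mapped fragments of a library), which carry no read counts, so the depth behind a single value is unknown.

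Aromatic amino acid decarboxylases remove the carboxyl group of an aromatic amino acid. In tomato fruit, the members of the family that act on phenylalanine give phenethylamine, the entry into the pathway of the floral volatiles phenylacetaldehyde and 2-phenylethanol. N-acetyltransferases, by their name, move an acetyl group onto an amine. The study places Solyc08g068690, which it annotates so, in the synthesis of hydroxycinnamic acid and tyramine amides. Phenylalanine itself is made from chorismate by chorismate mutase and, in its last step, arogenate dehydratase, and phenylacetaldehyde is reduced to 2-phenylethanol by the reductases PAR1 and PAR2.

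The 4 decarboxylase genes with IDs in the Solyc08g068 series and the N-acetyltransferase lie in 1 stretch of the chromosome, with other gene IDs between them. On the SL2.40 reference build used for H, the loci were Solyc08g068600 at chr8:54940070-54942182, Solyc08g068610 at chr8:54949153-54951310, Solyc08g068630 at chr8:54972693-54974816 and Solyc08g068680 at chr8:55021770-55023921, together a stretch of 83852 bases. AADC2 lay far from them on the same chromosome, at chr8:1295711-1298340. These are whole loci as the authors' assembly of transcripts defined them, and exons, introns and UTRs were not analysed here.

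The row of Solyc08g068690 was not a single gene. In H and SM it joined the IDs Solyc08g068690, Solyc08g068700 and Solyc08g068730 in 1 value, and in RSV it joined only Solyc08g068690 and Solyc08g068700. Its locus in H, chr8:55029336-55114927, was 85592 bases long and was given identically for 9 rows of the H table, and for 11 rows each in SM and RSV the locus was likewise shared. It began 5414 bases after Solyc08g068680 in H. In RSV the row of AADC2 had 1 ID but shared its locus of 29757 bases with the row of Solyc08g006750, while in H and SM it stood alone. Genes of such a family can resemble each other closely, and how fragments were divided between overlapping or similar genes was not tested here.

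The study designed a primer pair for Solyc08g068690, the 1 member it measured by quantitative RT-PCR. The pair is shown because it is the sequence by which this gene, as distinct from the joined row, was addressed. Both are written 5′ to 3′ in lower case, with no part marked.
forward: aagggttcaagcctgtcctt
reverse: gcagcaatggacgaaactgt
Each primer has 20 bases, of which 10 are G or C. No values of that assay are used here.

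Solyc08g068600 was the decarboxylase with the highest mean in every Acerra group. In H it stood at 31.0, 42.5 and 50.8 FPKM in Acerra replicates 1, 2 and 3 and at 12.7, 19.2 and 8.16 FPKM in the Sarno replicates. In RSV the values were 18.2, 24.8 and 16.3 FPKM in Acerra and 2.37, 2.73 and 6.83 FPKM in Sarno. In both varieties every Acerra library lay above every Sarno library. The gene was 3.14-fold higher in Acerra in H (log2 difference 1.65, SE 0.33, limma adjusted p = 0.0358) and 4.89-fold higher in RSV (2.29, SE 0.37, limma adjusted p = 0.0164), both on the log2(FPKM + 0.5) scale, which understates the change of low genes.

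These 2 calls rest on few libraries. In H the call was lost without any 1 of the Acerra libraries or without Sarno replicate 1 (limma adjusted p from 0.0712 to 0.126), and it was also lost with rescaled libraries or without the filter on low loci. In RSV it was lost without any 1 library other than Sarno replicate 3 (limma adjusted p from 0.0526 to 0.0624), and became clearer without that one (2.71, limma adjusted p = 8.25e-04). The difference held its direction in all of these fits.

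In SM the values of Solyc08g068600 were 15.2, 32.3 and 31.0 FPKM in Acerra and 0.524, 1.24 and 0.657 FPKM in Sarno. The group means, 26.2 ± 9.49 and 0.806 ± 0.379 FPKM (SD, n = 3 each), differed 32.5-fold. The 3 Sarno libraries of SM were the lowest of all 18. The order of the group means ran from H in Acerra (41.4 ± 9.96 FPKM) through SM and RSV in Acerra (RSV 19.8 ± 4.44) to H in Sarno (13.4 ± 5.55), then RSV in Sarno (3.97 ± 2.48), with SM in Sarno last (means ± SD of 3 libraries). The first 4 groups overlapped one another from neighbour to neighbour, while H in Sarno lay wholly above RSV in Sarno, and RSV in Sarno wholly above SM in Sarno. Levels were not tested between varieties, because each had its own assembly and its own expression run.

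**Figure D1:**
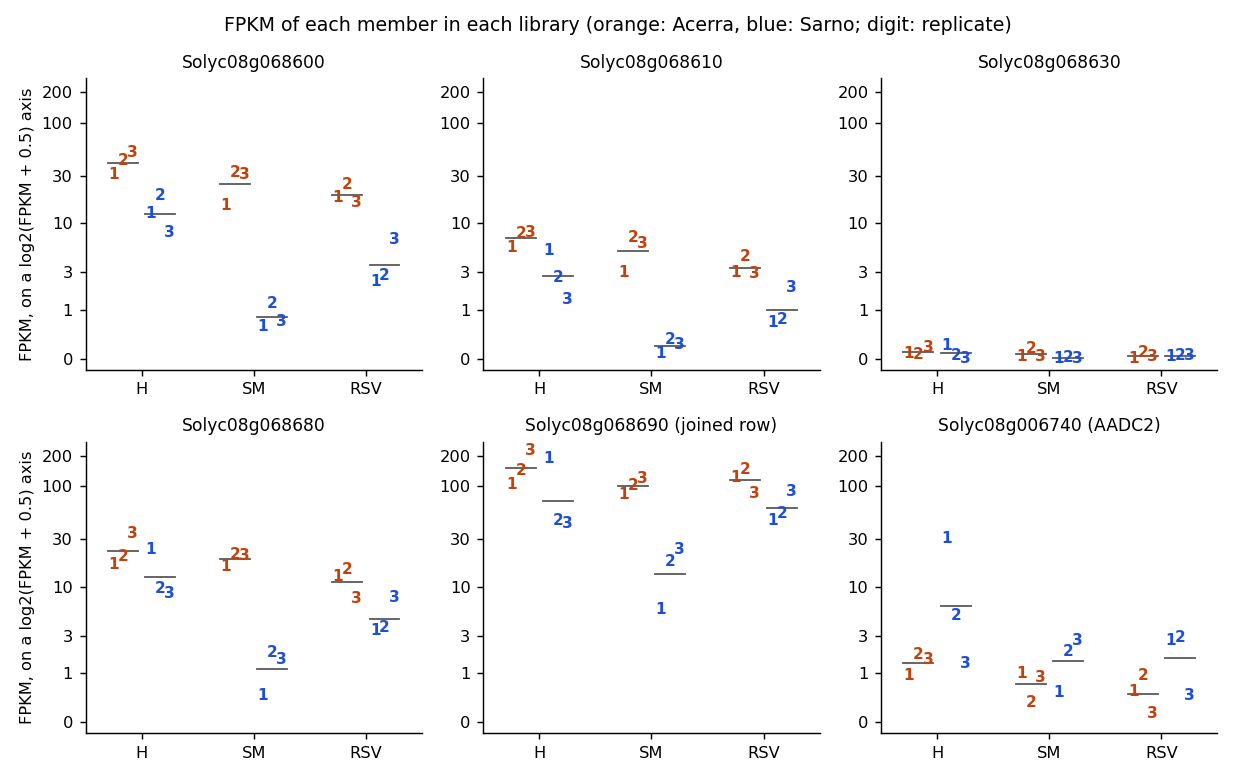
FPKM of the 6 genes in each of the 18 libraries, on a log2(FPKM + 0.5) axis, by variety and location. Digits are the replicate numbers, orange for Acerra and blue for Sarno, and bars are the means of the log2 values. Sarno libraries of SM lie lowest for Solyc08g068600, Solyc08g068610, Solyc08g068680 and the joined row, AADC2 is highest in H Sarno replicate 1 (30.6 FPKM), and Solyc08g068630 stays near 0.

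Solyc08g068610, the next decarboxylase along the chromosome, was several times less abundant with the same direction. In H it stood at 5.65, 7.85 and 8.01 FPKM in Acerra and at 5.23, 2.61 and 1.38 FPKM in Sarno. In RSV it stood at 2.98, 4.45 and 2.88 FPKM in Acerra and at 0.624, 0.723 and 1.96 FPKM in Sarno. The groups did not overlap in either variety, although Sarno replicate 1 of H came close to the lowest Acerra library. The differences did not pass the threshold in H (log2 difference 1.24, SE 0.40, limma adjusted p = 0.101) or in RSV (1.37, SE 0.34, limma adjusted p = 0.0508).

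The H difference of Solyc08g068610 passed without Sarno replicate 1 (1.65, limma adjusted p = 0.0405), and the RSV difference passed without Sarno replicate 3 (1.73, limma adjusted p = 0.00440). In SM the values were 2.99, 7.09 and 6.18 FPKM in Acerra and 0.0617, 0.271 and 0.193 FPKM in Sarno, a 30.9-fold difference of means (5.42 ± 2.15 against 0.175 ± 0.106, SD, n = 3 each). At these Sarno levels the log2 value depends on the pseudocount, and the SM difference was 3.07 with 0.5, 4.32 with 0.1 and 2.39 with 1. By group mean the order was again H (7.17 ± 1.32), SM and RSV (3.44 ± 0.878) in Acerra, then H (3.07 ± 1.97), RSV (1.10 ± 0.747) and SM in Sarno (SD, n = 3 each). Only the last step of that order, RSV above SM in Sarno, was free of overlap.

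Solyc08g068680, the decarboxylase beside the N-acetyltransferase, had the second highest mean of the decarboxylases in each Acerra group. In H the values were 16.7, 20.5 and 34.4 FPKM in Acerra and 23.6, 9.51 and 8.59 FPKM in Sarno. In RSV they were 12.7, 15.1 and 7.55 FPKM in Acerra and 3.39, 3.70 and 7.80 FPKM in Sarno. The locations overlapped in both varieties through a single Sarno library each, replicate 1 in H and replicate 3 in RSV. The differences did not pass the threshold in H (0.84, SE 0.43, limma adjusted p = 0.246) or in RSV (1.20, SE 0.37, limma adjusted p = 0.0839), and without RSV Sarno replicate 3 the latter was 1.55 with a limma adjusted p = 0.0143.

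In SM, Solyc08g068680 stood at 16.1, 21.2 and 20.6 FPKM in Acerra and at 0.417, 1.91 and 1.56 FPKM in Sarno. The means of 19.3 ± 2.78 and 1.29 ± 0.780 FPKM (SD, n = 3 each) differed 14.9-fold. Over the 6 groups the order was H (23.9 ± 9.32) and SM in Acerra, H in Sarno (13.9 ± 8.44), RSV in Acerra (11.8 ± 3.86), RSV in Sarno (4.97 ± 2.46) and SM in Sarno (SD, n = 3 each). Neighbours in this order overlapped except the last pair.

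Solyc08g068630 lies between Solyc08g068610 and Solyc08g068680 and was close to 0 in all 18 libraries. Its highest value was 0.177 FPKM, in H Sarno replicate 1, and 4 libraries were listed at 0. It was below the filter of a mean of 0.5 FPKM in every variety, so it was not tested. The cluster thus held 3 measurable decarboxylases and 1 that was barely detected.

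The joined row of Solyc08g068690 was the most abundant of the 6 in every library, with a mean above 95.1% of the loci detected in H in Acerra and above 68.8% of those in SM in Sarno, its lowest place. In H it stood at 105, 144 and 224 FPKM in Acerra and at 188, 46.3 and 43.3 FPKM in Sarno. In RSV it stood at 122, 147 and 85.5 FPKM in Acerra and at 45.9, 54.5 and 89.3 FPKM in Sarno. The same Sarno libraries as for Solyc08g068680, replicate 1 of H and replicate 3 of RSV, lay within the Acerra range. The differences did not pass the threshold in H (1.05, SE 0.60, limma adjusted p = 0.285) or in RSV (0.92, SE 0.30, limma adjusted p = 0.0967).

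Without H Sarno replicate 1 the row was 1.74 higher in Acerra in H (limma adjusted p = 0.0447), and without RSV Sarno replicate 3 it was 1.20 higher in RSV (limma adjusted p = 0.0171). In SM the row stood at 82.5, 102 and 120 FPKM in Acerra and at 5.76, 17.997 and 24.0 FPKM in Sarno, a 6.37-fold difference of means (101.4 ± 18.6 against 15.9 ± 9.30, SD, n = 3 each). A second SM row in the same stretch, joining Solyc08g068700 and Solyc08g068760, showed the same order with 44.9, 30.6 and 31.1 FPKM in Acerra and 2.74, 5.64 and 7.58 FPKM in Sarno. Other rows of Solyc08g068700 did not. Its row with 1 ID overlapped between the locations in SM, as did a joined row in RSV. In RSV its row with 1 ID was higher in Sarno (1.53, 1.22 and 0.694 against 1.60, 2.25 and 2.18 FPKM, log2 difference -0.63, limma adjusted p = 0.145). Also in RSV, the ID Solyc08g068730, which H and SM fold into the joined row, had its own row and was higher in Sarno (0, 0.395 and 0 against 10.2, 9.99 and 1.40 FPKM, log2 difference -3.30, SE 0.70, limma adjusted p = 0.0329). The value of the joined row in H and SM therefore holds IDs that had rows of opposite direction in RSV.

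AADC2 (Solyc08g006740), one of the tomato decarboxylases known to act on phenylalanine, had higher means at Sarno, the reverse of the cluster. In H it stood at 0.913, 1.77 and 1.55 FPKM in Acerra and at 30.6, 5.02 and 1.37 FPKM in Sarno. In SM it stood at 0.987, 0.285 and 0.878 FPKM in Acerra and at 0.482, 1.98 and 2.63 FPKM in Sarno. In RSV it stood at 0.493, 0.924 and 0.109 FPKM in Acerra and at 2.64, 2.84 and 0.418 FPKM in Sarno. In each variety 2 of the 3 Sarno libraries lay above all 3 Acerra libraries and 1 did not, so the groups overlapped.

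The differences of AADC2 did not pass the threshold in H (-1.87, SE 0.94, limma adjusted p = 0.238) or RSV (-1.16, SE 0.57, limma adjusted p = 0.229). In H the size rests on replicate 1 of Sarno, without which the difference was -0.78 (limma adjusted p = 0.352). In RSV it passed without Sarno replicate 3 (-1.77, limma adjusted p = 0.0200). The order of the means was H (12.3 ± 15.9), RSV (1.97 ± 1.34) and SM in Sarno (1.70 ± 1.10), then H (1.41 ± 0.446), SM (0.717 ± 0.378) and RSV in Acerra (0.509 ± 0.408 FPKM, SD, n = 3 each), and every pair of neighbours in it overlapped.

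**Figure D2:**
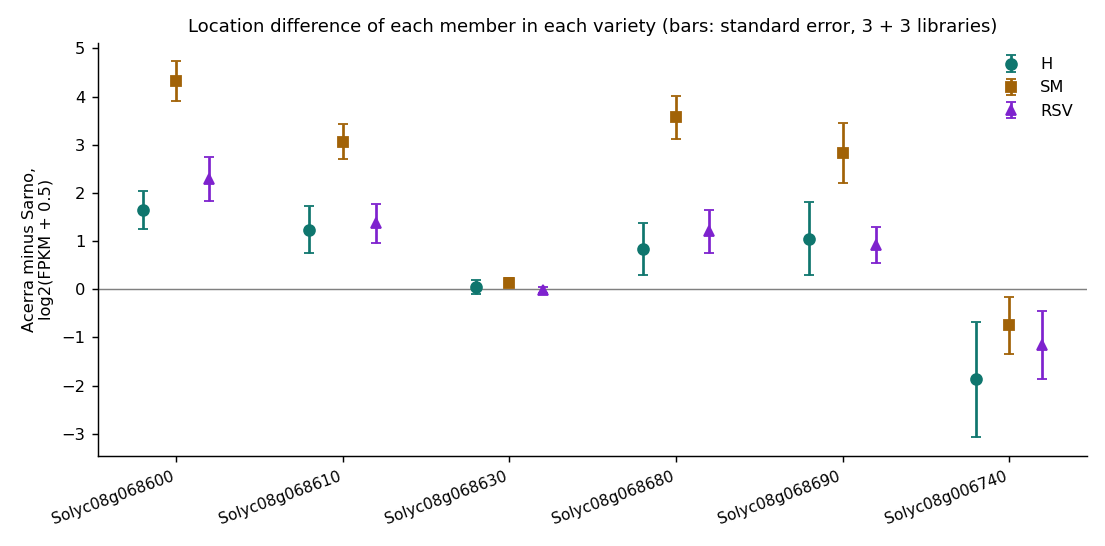
Difference between Acerra and Sarno of each gene in H, SM and RSV, as the mean of log2(FPKM + 0.5) in Acerra minus that in Sarno, with the standard error from the 3 + 3 libraries as bars. Solyc08g068600, Solyc08g068610, Solyc08g068680 and the joined row of Solyc08g068690 lie above 0 in all 3 varieties, AADC2 lies below 0, and the SM points (4.32 for Solyc08g068600) carry no test.

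Over the tested members, 1 of 5 passed the threshold as higher in Acerra in H, beside 6.58% of all tested loci, and 1 of 5 in RSV, beside 6.11%. No member passed as higher in Sarno in either variety, where 2.26% of loci in H and 5.72% in RSV did. By bare separation of the libraries, 2 of the 6 members had every Acerra value above every Sarno value in H and 2 in RSV, beside 24.5% and 18.5% of tested loci. In SM 5 of the 6 did, beside 18.2%, and that count includes the trace values of Solyc08g068630 and uses the contrast by which the study had picked 4 of the genes. In all tested loci of H the median log2 difference was 0.096, and it was -0.022 after rescaling the libraries by their median ratio, so the H differences above include a shift of that size. With that rescaling the H loci past the threshold were 568 higher in Acerra and 480 higher in Sarno, in place of 1190 and 408.

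The 12 libraries of H and RSV were then fitted together. The joint difference is the mean of the location differences of these 2 varieties, so a call does not require a difference in each. The study had not used their contrasts to pick these genes. The members were set here with earlier results of these data known, so the fit is not free of selection. Solyc08g068600 was 3.92-fold higher in Acerra (log2 difference 1.97, SE 0.27, limma adjusted p = 6.88e-04). Solyc08g068610 was 2.47-fold higher (1.30, SE 0.28, limma adjusted p = 0.00692), and Solyc08g068680 was 2.03-fold higher (1.02, SE 0.31, limma adjusted p = 0.0306). AADC2 was lower in Acerra by an amount that did not pass (-1.52, SE 0.61, limma adjusted p = 0.0847). Thus 3 of the 4 members matched between the tables passed as higher in Acerra on this mean, beside 17.6% of the loci in that fit. The call of Solyc08g068680 was lost with a replicate block (limma adjusted p = 0.0849), which left 2 members, and without the filter on low loci (limma adjusted p = 0.0501).

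The first pair of these joint differences held when any 1 library was left out, with limma adjusted p-values of at most 0.00259 for Solyc08g068600 and 0.0198 for Solyc08g068610. The call of Solyc08g068680 was lost in 8 of the 12 such fits, the largest limma adjusted p being 0.0709 without H Acerra replicate 3, and the 4 fits in which it held include those without H Sarno replicate 1 (0.00848) and without RSV Sarno replicate 3 (0.0147). The joined row could be matched between H and RSV only by its first ID, and its joint difference was then 0.99 (SE 0.37, limma adjusted p = 0.0666). AADC2 passed without H Sarno replicate 3 (-1.98, limma adjusted p = 0.0154) and without RSV Sarno replicate 3 (-1.82, limma adjusted p = 0.0462).

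Whether the location difference itself differed between RSV and H was tested in the same libraries, and none of the 4 matched members passed by limma, beside 0.104% of loci. For Solyc08g068600 the RSV difference exceeded that of H by 0.64 (95% interval from -0.55 to 1.83, limma adjusted p = 0.591). For Solyc08g068610 the interval ran from -1.12 to 1.38, for Solyc08g068680 from -1.004 to 1.73 and for AADC2 from -1.98 to 3.39. At an unadjusted p under 0.05 the count was also 0, beside 2548 of the 15400 loci. These intervals include 0 and also differences of more than 1 log2 unit, so the varieties are not shown to be alike.

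None of the 3 genes just before the cluster passed in the main fit of H or of RSV. Solyc08g068610, Solyc08g068680 and the joined row did not pass there either. In the joint fit the 3 genes again did not pass, the lowest limma adjusted p being 0.0546 for Solyc08g068580 (0.27 higher in Acerra). Solyc08g068590, whose locus ends 452 bases before that of Solyc08g068600 in H, stood at 23.2, 24.2 and 23.7 FPKM in Acerra and at 21.8, 27.2 and 21.1 FPKM in Sarno in H. Its difference was 0.03 in H (95% interval from -0.28 to 0.34) and -0.0049 in RSV (from -0.30 to 0.29), and in SM its 6 libraries lay between 20.9 and 26.0 FPKM. The next genes outward, Solyc08g068580 and Solyc08g068570, differed by 0.19 and -0.02 in H and by 0.34 and -0.08 in RSV, with no limma adjusted p below 0.131. Inside the cluster, Solyc08g068620 and Solyc08g068640 were traces of at most 0.308 FPKM, with every Acerra value above every Sarno value for both in SM and RSV and for Solyc08g068640 in H. The other IDs there overlapped between the locations in every variety, Solyc08g068670 at no more than 0.0773 FPKM and Solyc08g068660 in rows that reached 3.68 FPKM in H.

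**Figure D3:**
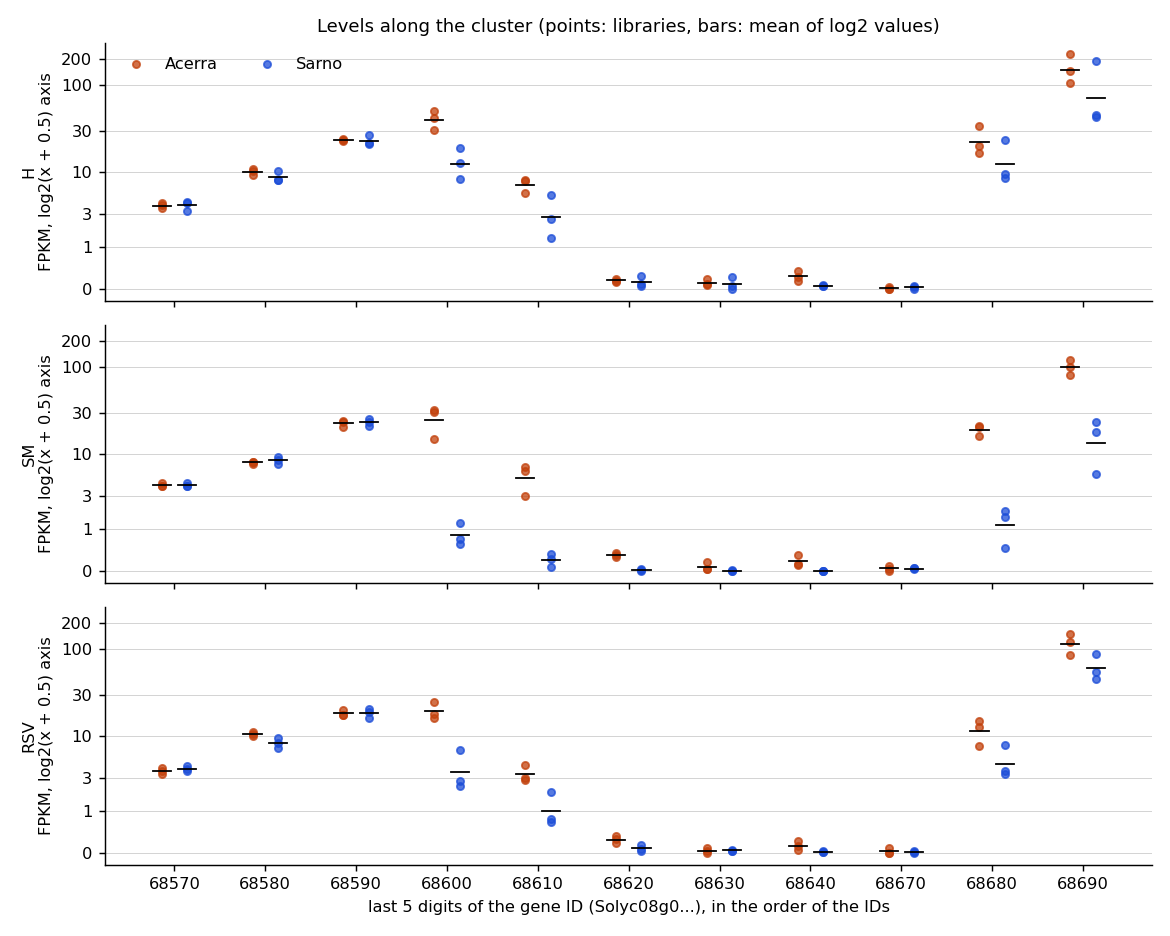
FPKM, on a log2(FPKM + 0.5) axis, of genes from Solyc08g068570 to Solyc08g068690 in the order of their IDs, for H, SM and RSV. Solyc08g068660 is not drawn. Points are libraries (orange Acerra, blue Sarno) and bars are means of the log2 values. The first 3 genes differ little between locations, though Solyc08g068580 in RSV has every Acerra library above every Sarno library. Solyc08g068600, Solyc08g068610, Solyc08g068680 and the joined row of Solyc08g068690 have lower Sarno means in all 3 varieties.

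Beside AADC2, at a distance of 9392 bases in H, lies Solyc08g006730, which the study annotates as an N-acetyltransferase. A decarboxylase and an N-acetyltransferase thus neighbour each other at both places on the chromosome. In H, Solyc08g006730 stood at 0, 0.253 and 0.480 FPKM in Acerra and at 6.74, 4.81 and 1.42 FPKM in Sarno, with every Sarno library above every Acerra library. It was lower in Acerra in H (log2 difference -2.55, SE 0.53, limma adjusted p = 0.0401), a call lost without any 1 library other than Sarno replicate 3 (limma adjusted p up to 0.127). In RSV, where the study had picked it for its difference, it stood at 0.145, 0.735 and 0 FPKM in Acerra and at 23.6, 21.0 and 0.984 FPKM in Sarno. In SM the locations overlapped, with 0.936, 0.727 and 0.228 FPKM in Acerra and 0.226, 0.990 and 2.05 FPKM in Sarno.

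The mix of decarboxylase transcripts differed between the sites in the same direction in each variety. AADC2 made up 1.63% to 2.44% of the summed FPKM of the 5 decarboxylase genes in the H libraries from Acerra and 7.03% to 42.3% in those from Sarno. In SM its share was 0.468% to 2.79% in Acerra and 32.5% to 52.1% in Sarno, and in RSV 0.405% to 2.04% and 2.45% to 29.2%. Every Sarno library thus had a larger share of AADC2 than every Acerra library of its variety, in RSV by a small margin (2.45% against 2.04%). The sum includes Solyc08g068600, Solyc08g068610 and Solyc08g068680, which the study had picked for their location difference in SM. The larger share in SM therefore follows in part from that choice, and the FPKM of AADC2 itself overlapped between the locations in every variety. Over the Acerra libraries, the summed FPKM of the 5 genes lay between 54.3 and 94.9 in H. The Sarno range was 19.5 to 72.4 there, and in SM the ranges were 35.4 to 61.0 against 1.48 to 5.41. For RSV they were 26.9 to 45.3 and 9.07 to 17.0.

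Within the cluster, Solyc08g068600 stood in a like ratio to Solyc08g068610 at Acerra, from 4.55 to 6.35 over the 9 Acerra libraries of the 3 varieties. In RSV the ratio was 5.57 to 6.09 in Acerra and 3.47 to 3.80 in Sarno. The locations overlapped in the other varieties, with Sarno ratios of 2.43 to 7.35 in H and 3.40 to 8.49 in SM. The ratio of Solyc08g068680 to Solyc08g068600 was 0.462 to 0.698 in RSV in Acerra and 1.14 to 1.43 in Sarno, so that Solyc08g068680 was the most abundant decarboxylase of every RSV Sarno library. This ratio too overlapped elsewhere, at 0.481 to 0.677 in Acerra and 0.495 to 1.86 in Sarno in H, and at 0.658 to 1.06 and 0.796 to 2.38 in SM. The most abundant decarboxylase was AADC2 in 1 H Sarno library (replicate 1) and in SM Sarno replicates 2 and 3. These shares and ratios are descriptions of levels per length and were not tested.

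**Figure D4:**
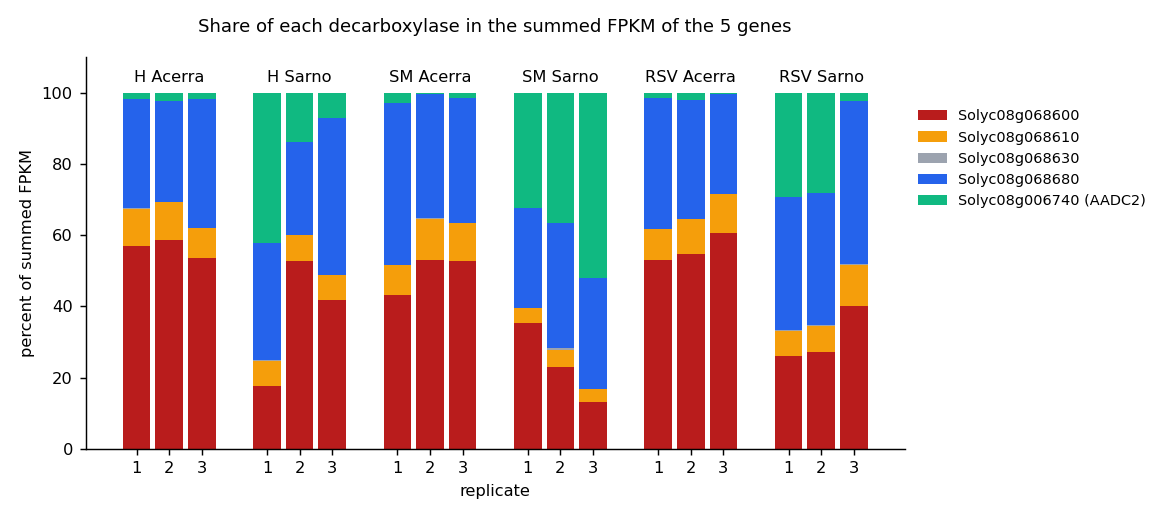
Share of each of the 5 decarboxylase genes in their summed FPKM, in percent, as 1 stacked bar per library, by variety, location and replicate. The AADC2 part is at most 2.79% of any Acerra library and reaches 52.1% in SM Sarno replicate 3, while the bar of RSV Sarno replicate 3 (2.45%) is closest to the Acerra bars.

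Genes with the most similar pattern over the 18 libraries were found by the root mean square difference of their log2(FPKM + 0.5) values, centred within each variety, among 12017 other genes whose mean reached 1 FPKM in each of the varieties. The joined row of Solyc08g068690 was the gene nearest to Solyc08g068680 (0.318 log2 units), and Solyc08g068610 came next (0.349), with Solyc04g074680 in place 3 (0.432). The nearest to Solyc08g068610 was Solyc08g068680, followed by Solyc07g045100 (0.380) and Solyc04g071030 (0.420). Nearest to Solyc08g068600 were Solyc02g086300 (0.492) and Solyc04g007580 (0.525), with Solyc08g068610 in place 3 (0.535). The genes nearest to the joined row were Solyc10g052880 (0.238) and Solyc03g098730 (0.240), with Solyc08g068680 in place 3. Those nearest to AADC2 were Solyc04g083140 (0.444), Solyc12g010670 (0.468) and Solyc12g100270 (0.475), and the cluster genes were among the farthest from it, in places from 11573 to 11950. Seen from Solyc08g068610 and from Solyc08g068680, Solyc08g068600 was in place 24, and seen from the joined row in place 281. All these genes share the same 18 libraries, and the likeness was not tested. The 18 include the SM libraries, whose location difference the study had used to pick the cluster genes. Their nearness to each other and their distance from AADC2 are therefore partly set by that choice.

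Among 10 listed genes of the pathway before and after the decarboxylases, 8 were tested in H and 7 in RSV. In H 1 passed as higher in Acerra and 0 as higher in Sarno by limma, beside 6.58% and 2.26% of all tested loci. There 4 had an unadjusted p under 0.05, as did 5375 of all 18089 tested loci. In RSV 2 passed as higher in Acerra and 3 as higher in Sarno, beside 6.11% and 5.72% of all tested loci. The median log2 difference was -0.05 in H and -0.44 in RSV, beside 0.10 and -0.02 over all tested loci. The other decarboxylase genes on the list, Solyc07g054860 and Solyc07g054280 on chromosome 7, were at most 0.0804 FPKM in all libraries and were not tested. Solyc09g064430 on chromosome 9, at 5.57 to 10.9 FPKM, was lower in Acerra by 0.42 in the joint fit (SE 0.10, limma adjusted p = 0.00956).

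Arogenate dehydratase, the last enzyme before phenylalanine, is represented by Solyc06g074530 and Solyc11g066890. Solyc06g074530 stood at 37.0, 21.3 and 38.8 FPKM in Acerra and at 12.5, 6.55 and 11.8 FPKM in Sarno in H, and at 19.0, 28.5 and 21.6 against 4.82, 4.80 and 3.55 FPKM in RSV. No Acerra library overlapped a Sarno library. It was higher in Acerra by 1.61 in H (SE 0.32, limma adjusted p = 0.0362) and by 2.26 in RSV (SE 0.19, limma adjusted p = 0.00250), and the H call was lost in 5 of the 6 fits without 1 library (all but that without Sarno replicate 3, limma adjusted p up to 0.111). In SM it stood at 27.1, 36.3 and 36.1 FPKM in Acerra and at 1.41, 3.12 and 4.04 FPKM in Sarno. Solyc11g066890 was higher in Acerra in RSV (1.30, SE 0.12, limma adjusted p = 0.00352) and differed by 0.40 in H (limma adjusted p = 0.362).

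PAR2, the reductase after the decarboxylases, and FLORAL4, a gene tied to phenylalanine-derived volatiles in tomato fruit, had higher means in Sarno. PAR2 (Solyc01g008550) stood at 3.57, 1.34 and 1.55 FPKM in Acerra and at 30.4, 5.29 and 5.05 FPKM in Sarno in H, and at 2.14, 2.15 and 1.04 against 19.1, 14.4 and 8.19 FPKM in RSV. It was lower in Acerra in RSV (-2.63, SE 0.36, limma adjusted p = 0.00996) and did not pass in H (-2.01, SE 0.71, limma adjusted p = 0.120). FLORAL4 (Solyc04g063350) was likewise lower in Acerra in RSV (-1.75, SE 0.19, limma adjusted p = 0.00533) and differed by -2.83 in H (limma adjusted p = 0.0608). Without H Sarno replicate 1 the H differences were -1.19 for PAR2 (limma adjusted p = 0.113) and -1.92 for FLORAL4, which then passed (limma adjusted p = 0.0237). Both passed in the joint fit (PAR2 -2.32, limma adjusted p = 0.00327, FLORAL4 -2.29, limma adjusted p = 0.00256). PAR1 (Solyc01g008530) shared its row with Solyc01g008540 in H and RSV, and in SM PAR1 and PAR2 were joined in 1 row, so they cannot be told apart there. In H that row stood at 4.64, 0.209 and 9.67 FPKM in Acerra and at 1.32, 0.353 and 0.358 FPKM in Sarno. Its difference in H had the opposite sign to that of PAR2 and did not pass (1.60, SE 0.96, limma adjusted p = 0.308). In RSV the row was below the filter, at 0.205, 0.719 and 0.251 FPKM in Acerra and 0.449, 0.501 and 0.628 FPKM in Sarno. There its difference had the sign of PAR2 (-0.24, not tested). The joint difference of the row was 0.68 and did not pass (limma adjusted p = 0.374), except without H Acerra replicate 2 (1.24, limma adjusted p = 0.0123).

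Chorismate mutase, the enzyme that leads chorismate towards phenylalanine and tyrosine, showed no common direction. Solyc02g088460 was lower in Acerra in RSV (-0.87, SE 0.14, limma adjusted p = 0.0158), a call lost without any 1 library other than Sarno replicate 3 (limma adjusted p up to 0.0637), and differed by -0.51 in H (limma adjusted p = 0.482). Solyc11g017240 differed by 0.30 in H and by -0.44 in RSV, neither past the threshold (limma adjusted p = 0.341 and 0.266).

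**Figure D5:**
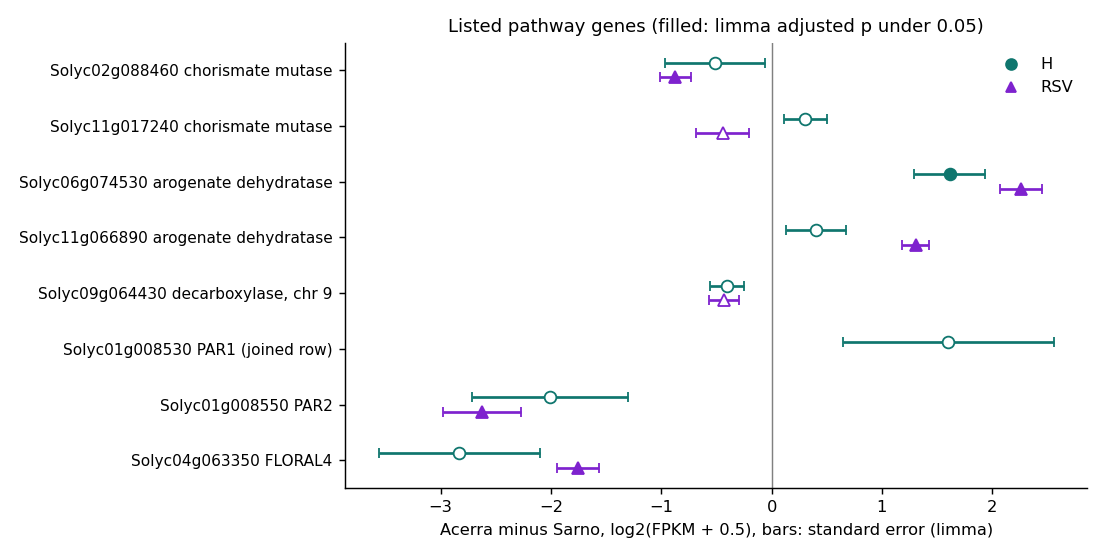
Difference between Acerra and Sarno of the tested pathway genes in H (circles) and RSV (triangles), as limma's log2(FPKM + 0.5) difference with its standard error. Filled symbols passed an adjusted p of 0.05. Arogenate dehydratase Solyc06g074530 lies right of 0 in both varieties (1.61 and 2.26), PAR2 and FLORAL4 lie left of it.

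Some libraries stood apart in ways that touch these genes. H Sarno replicate 1 held the highest AADC2 value of all libraries, and with it the highest values of Solyc08g006750 (28.6 FPKM), Solyc08g068710 (16.5), Solyc08g068770 (18.4), PAR2 (30.4), FLORAL4 (29.6) and Solyc02g088460 (28.3). RSV Sarno replicate 3 had an FPKM sum of 3279109, against 892841 to 1433619 in the other 17, with 1 locus at 993065 FPKM. In it Solyc08g068600, Solyc08g068610, Solyc08g068680, the joined row and AADC2 lay closer to the Acerra libraries than in the other RSV Sarno libraries. The highest locus stood at 418428 FPKM in SM Sarno replicate 1 and at 345940 FPKM in SM Acerra replicate 2. In the remaining libraries it was at most 113683 FPKM. SM Sarno replicate 1 held the lowest values of Solyc08g068600, Solyc08g068610, Solyc08g068680 and the joined row. The part of such loci in the other values was not tested. Marker genes of ripe fruit, among them the polygalacturonase gene Solyc10g080210 at 1116 to 10515 FPKM, were abundant in every library, except that the phytoene synthase gene Solyc03g031860 was listed at 0 in the 3 SM Sarno libraries. In the joint fit 2 of the 5 ripe fruit markers passed as higher in Sarno, beside 1795 of all 15400 loci. The other 3, Solyc10g080210, Solyc03g031860 and the row of Solyc05g012020, did not pass. The 2 that passed were Solyc03g111720 (-0.71, limma adjusted p = 0.0142) and the row of Solyc09g089580 (-0.77, limma adjusted p = 0.0314). The summed FPKM of 3 small subunit genes of Rubisco, which mark green tissue, was 21.3 to 39.1 in Acerra and 125 to 297 in Sarno in H, 6.30 to 12.5 and 45.3 to 89.2 in RSV, and 36.7 to 197 and 152 to 304 in SM. Of these, Solyc03g034220 gave nearly the whole sum, and Solyc02g085950 was at 0 in Acerra replicate 1 of H and of RSV and Solyc02g063150 in Acerra replicate 2 of H. By the study's sequencing statistics the Sarno libraries of SM and RSV were also the deeper ones. The part of depth and of green tissue in the differences between locations was not tested, and in whole fruit fewer cells of a type and less RNA per cell cannot be told apart.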

How the data were processed

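Total RNA of red ripe fruit was made into TruSeq libraries, which do not mark strand, and sequenced in pairs. The labels and the study's sequencing statistics list 18 samples, taken here as 3 replicates per group, while the study's methods name 6 libraries. The authors demultiplexed with CASAVA 1.8.2, aligned with TopHat2 2.0.6, H to the SL2.40 reference and SM and RSV to their own assemblies, and estimated expression with Cufflinks 2.1.1 with multi-read correction and annotation-guided assembly, in 1 run per variety. The deposited values are FPKM per locus, another unit than counts, written with decimal commas. No counts were used, so no interval was computed for a single value.

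Values were put on a log2(FPKM + 0.5) scale, and loci averaging 0.5 FPKM or more over the libraries of a fit entered limma 3.58.1 under R 4.3.3 (eBayes with a trend, two-sided, Benjamini-Hochberg adjustment over all tested loci, threshold 0.05), in H, in RSV and in both together (12 libraries, rows matched by their gene IDs). Models were tested on simulated data. Tables were handled in Python 3.11.15 (pandas 2.3.3, numpy 2.4.6) and drawn with matplotlib 3.10.9. Members and lists were chosen with earlier results of these data known. Text names the members, 10 pathway genes, 8 marker genes and the 3 genes most like each member except Solyc08g068630. Neighbours by ID are named where a result turns on them. Of the 6 member IDs, 0 matched the RefSeq gene table. Alternatives were pseudocounts of 0.1 and 1, other filters, rescaling, quantile normalization, no trend, a replicate block and the omission of each library.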

Additional observations from a re-analysis of the deposited data

How the results depend on the processing

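With other settings, the number of loci past the threshold in H was 1598 as reported, 1048 after median ratio rescaling and 832 after quantile normalization (427 higher in Acerra and 405 in Sarno), and the members past it fell from 1 to 0 with either, with no filter and with the replicate block. In RSV 2 members passed with a pseudocount of 1 and with quantile normalization. For the difference between RSV and H, 16 loci passed as reported, 51 with no filter and 25 without a trend, and no member passed in any fit by limma. In H 1 member kept its libraries apart after median ratio rescaling, for which the share of all loci was not computed. Arogenate dehydratase Solyc06g074530 in H lost its call with no filter and with either rescaling (adjusted p 0.0529 to 0.0594 by limma), Solyc08g006730 in H with no filter and with quantile normalization (0.0511 to 0.0639) and Solyc08g068680 in the joint fit with no filter (0.0501). FLORAL4 in H gained one with a pseudocount of 0.1 (0.0473) and without Sarno replicate 1 (0.0237).

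Without 1 library, between 3 (without H Acerra replicate 2) and 1805 loci passed in H, and between 0 and 2 members. In RSV between 589 and 4176 loci passed (the highest without Sarno replicate 3), and between 0 and 5 members. For the difference between RSV and H the count lay between 13 and 120. The members with the sites apart numbered 2 to 5 in H (5 without Sarno replicate 1) and 2 to 4 in RSV (4 without Acerra replicate 3 or Sarno replicate 3). The 5 in H include the trace values of Solyc08g068630. Fewer libraries are more easily apart, and the share of all loci apart under these omissions was not computed. Nothing about the members is therefore read from these counts. Direction turned, without any call, for Solyc02g088460 in H (-0.87 to 0.035), for Solyc11g017240 in both varieties together (-0.14 to 0.053), and for the RSV excess over H of AADC2 (-0.38 to 1.64), Solyc08g068610 (-0.28 to 0.52) and Solyc08g068680 (-0.084 to 0.71). The causes were not tested.

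Whether replicate numbers pair the libraries was not settled. The deviations of same-numbered libraries correlated between -0.086 and 0.326, and those of differently numbered libraries between -0.269 and 0.147. The main fits treated the libraries as unpaired. With the replicate block, 1113 loci passed in H, 1121 in RSV (2167 as reported), 4116 in the joint fit (4501) and 9 for the difference between varieties, and Solyc08g068600 in H, Solyc08g006730 in H and Solyc08g068680 in the joint fit lost their calls (adjusted p 0.0615, 0.0789 and 0.0849 by limma), while PAR2 in H gained one (0.0480). The files hold no counts, so what depth limits could not be computed.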
